A study of Mus musculus with 41 samples.

Results

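Metabolic labelling RNA libraries (iSLAM-seq) were used to compare mouse germline stem cells carrying an inducible Rhox10 vector with cells carrying the empty vector, 4 h into the time course. The comparison takes the 2 Rhox10 and the 2 Ctrl libraries whose labels give 4 h, which is 4 of the 24 iSLAM-seq libraries and 4 of the 41 samples of the series. Because the vectors already differed at 0 h, the difference at 4 h was set against the difference in the 2 Rhox10 and 2 Ctrl libraries at 0 h. The cells were germline stem cells grown from testes of C57BL/6 pups at P0 to P1. In every group, Ctrl included, endogenous Rhox10 had been knocked down with an shRNA lentivirus and the GFP-positive cells had been sorted. The Rhox10 groups then received a lentivirus for a Rhox10-ERT2-mCherry fusion, which 4-Hydroxytamoxifen switches on, and the Ctrl groups one for ERT2-mCherry alone. The labels do not say outright that the Ctrl cells received 4-Hydroxytamoxifen. The labels describe 1 cell population per vector, so that vector and population cannot be told apart.

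RHOX10 is a homeobox transcription factor of the X-linked Rhox cluster, known for its part in turning pro-spermatogonia into spermatogonial stem cells. A protein fused to ERT2, the modified hormone-binding domain of the oestrogen receptor, is held outside the nucleus until its ligand arrives, so that the timing of the factor is set by the drug and not by its transcription. Immediate-early genes of the FOS, JUN and EGR families are switched on within minutes by growth factor and stress signals, and their RNAs are short-lived. Interferon-response genes are switched on through the ISGF3 and IRF factors, and BMP and activin are ligands of the TGF-beta family that signal through SMAD proteins.

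The 8 libraries at 0 h and 4 h held 9900971 to 12034130 counts, and the replicate pairs correlated at Pearson's r of 0.986 to 0.991 across genes on the log2 CPM scale (CPM, counts scaled to a common library total with TMM factors). The labels call the 2 libraries of a group biological replicates and do not say whether they came from separate cultures, so the p-values measure the spread between these libraries. Bulk RNA was measured, and fewer cells of a type and less RNA per cell cannot be told apart. The pair of Ctrl libraries at 0.5 h, which enters only the shared estimate of spread, stood apart from each other: its counts differed by a chi-square of 26.6 per degree of freedom, against 2.61 to 4.57 in the other 11 pairs.

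Between 0 h and 4 h the vector difference changed in 137 of 20642 genes tested (0.664%; edgeR's quasi-likelihood test, Benjamini-Hochberg adjusted p under 0.05). Here a gene is said to have risen or fallen when its Rhox10 over Ctrl ratio was larger or smaller at 4 h than at 0 h beyond that threshold. By this measure 42 genes rose (0.203%) and 95 fell (0.46%). The smallest adjusted p among the falls belonged to Egr1, Trib1, Fosb, Fos and Egr3, and among the rises to Inhba, Pmepa1, Bmp2, Mx2 and Rsad2. The difference at 4 h on its own passed the test in 2521 genes (12.2%), 1336 higher (6.47%) and 1185 lower (5.74%) in Rhox10, but 2246 genes (10.9%) already differed at 0 h, 1354 higher (6.56%) and 892 lower (4.32%). All 137 were also among the genes changed without the Ctrl 0.5 h libraries. There the count of changed genes was 473 of 20510 tested, with 230 rises and 243 falls. With any single one of the 8 libraries left out it was 69 to 94.

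Rhox10 RNA itself separated the vectors at both times. It stood at 46.7 and 42.4 CPM in the Rhox10 libraries at 4 h and at 0.504 and 0.592 CPM in Ctrl. At 0 h it was 38.5 and 35.7 CPM against 1.51 and 1.16 CPM. The libraries matched their vector labels at both times, with no overlap. The change from 0 h to 4 h was 1.52 on the log2 scale (SE 0.793, adjusted p = 0.605) and did not pass the test. Within the Rhox10 libraries the step from 0 h to 4 h was 0.26 (SE 0.281, adjusted p = 0.684).

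Egr1, Egr2 and Egr3 fell, and Egr4 did not pass the test. The list of EGR factors and their NAB corepressors had 6 tested members. Of these 3 fell and none rose, against 0.46% and 0.203% of all genes. The median log2 change was -0.95, against -0.01 over all genes. Egr3 (ENSMUSG00000033730, GRCm38 chr14:70077203-70082614, plus strand), a zinc finger factor of the EGR family, was at 47.7 and 49.98 CPM in Rhox10 and at 221 and 200 CPM in Ctrl at 4 h. At 0 h it was 90.5 and 95.6 CPM in Rhox10 and 126 and 140 CPM in Ctrl. The Rhox10 libraries were thus the lower ones at both times without overlap, and the gap widened to 4.31-fold at 4 h. The log2 difference at 4 h was -2.11 (SE 0.0895, adjusted p = 1.16e-13), and the change from 0 h was -1.59 (SE 0.123, adjusted p = 2.93e-08).

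Egr1, the best-known immediate-early factor of the family, had the smallest adjusted p of all changes. Its Rhox10 libraries held 128 and 130 CPM at 4 h where Ctrl held 401 and 416 CPM. At 0 h the order was the other way, 695 and 683 CPM in Rhox10 against 620 and 614 CPM in Ctrl, a difference that did not pass the test (adjusted p = 0.0904). The change was -1.82 (SE 0.0848, adjusted p = 4.26e-12). Egr2, which serves in myelination and in lymphocytes, was at 19.8 and 18.3 CPM against 66.3 and 71.1 CPM at 4 h, with a change of -1.48 (SE 0.236, adjusted p = 0.00128). Egr4 was lower at 4 h (log2 difference -0.53, adjusted p = 1.76e-05), but its change of -0.41 missed the threshold (adjusted p = 0.069). Of the corepressors that bind EGR proteins, Nab1 had a change of 0.07 and Nab2 one of -0.42, with adjusted p of 0.974 and 0.445.

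Genes of the immediate-early and AP-1 list were also among the falls. Of its 24 tested members 11 fell and none rose, against 0.46% and 0.203% of all genes, with a median change of -0.87. The count of falls was 17 without the Ctrl 0.5 h libraries, a fit in which 243 of all 20510 genes fell. The list's median log2 difference between the vectors was 0.74 at 0 h and -0.24 at 4 h. At 4 h 4 of its members were higher and 7 lower in Rhox10, against 6.47% and 5.74% of all genes. Fosb, a leucine zipper partner of the JUN proteins, was at 12.6 and 10.5 CPM in Rhox10 and at 24.7 and 26.2 CPM in Ctrl at 4 h. At 0 h it had been 173 and 164 CPM against 66.2 and 64.8 CPM. The order of the vectors thus turned over between the times, with no overlap at either. Its change of -2.51 (SE 0.182, adjusted p = 1.39e-08) joined a difference of 1.37 at 0 h and of -1.14 at 4 h, each past the test. Fos crossed over too, from 249 and 261 CPM against 190 and 192 CPM at 0 h to 16.9 and 17.0 CPM against 50.1 and 47.8 CPM at 4 h (change -1.95, SE 0.147, adjusted p = 2.35e-08). Atf3, Klf4, Btg2 and Junb fell as well and were below Ctrl at 4 h, with changes between -1.97 and -1.25.

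**Figure D1:**
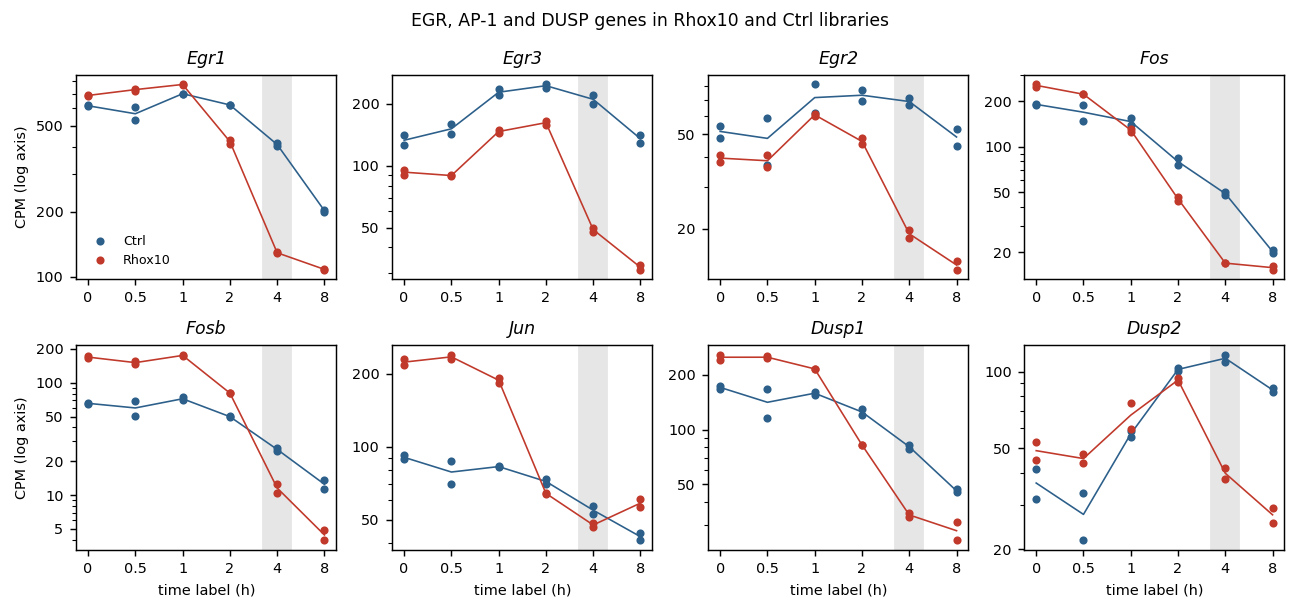
CPM (log axis) of 8 genes against the time label in h (6 evenly spaced labels, not to scale), with 1 point per library, lines through the means of the 2 libraries, Rhox10 in red, Ctrl in blue and 4 h shaded. At 4 h the red points lie below the blue ones in each panel, although for Jun the log2 difference of -0.20 did not pass the test.

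A second group of fallers had been higher in Rhox10 at 0 h and showed no called difference at 4 h. Jun, the core AP-1 subunit, went from 230 and 218 CPM against 88.7 and 92.2 CPM at 0 h to 48.3 and 46.8 CPM against 52.6 and 56.8 CPM at 4 h. Its change was -1.51 (SE 0.135, adjusted p = 3.05e-07), while its difference at 4 h was -0.20 (adjusted p = 0.212). Phlda1, a pleckstrin-homology-like protein induced by growth factors, held 547 and 563 CPM against 263 and 242 CPM at 0 h and 253 and 245 CPM against 262 and 259 CPM at 4 h. Only the Rhox10 libraries of Phlda1 moved: the step from 0 h to 4 h was -1.16 in Rhox10 (adjusted p = 1.51e-10) and 0.05 in Ctrl (adjusted p = 0.84). Nfkbiz, a nuclear member of the IkB family, had a difference of 1.33 at 0 h and of -0.26 at 4 h (adjusted p = 0.138 at 4 h). Nr4a2, an orphan nuclear receptor, had 1.29 at 0 h and 0.22 at 4 h (adjusted p = 0.0635 at 4 h).

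The movement within each vector sorted the falls into kinds. From 0 h to 4 h the test was passed by 1287 genes in Rhox10 (6.23%), 645 of them higher at 4 h (3.12%) and 642 lower (3.11%). In Ctrl it was passed by 683 genes (3.31%), 447 higher (2.17%) and 236 lower (1.14%). Fos, Fosb, Egr1, Dusp1, Jun, Nfkbiz and Nr4a2 passed as lower at 4 h within both vectors, and the test of the change found the step larger in Rhox10. For Fos the steps were -3.91 in Rhox10 and -1.96 in Ctrl, and for Egr1 they were -2.42 and -0.60. Egr3, Trib1 and Bhlhe40 moved in opposite directions, higher at 4 h within Ctrl and lower within Rhox10, each past the test. For Egr3 the steps were -0.93 in Rhox10 and 0.66 in Ctrl. Dusp2 passed as higher at 4 h within Ctrl (1.63) and did not pass within Rhox10 (-0.30, adjusted p = 0.308).

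Trib1, a pseudokinase that directs C/EBP proteins to degradation, was at 80.9 and 79.8 CPM in Rhox10 and at 204 and 189 CPM in Ctrl at 4 h (change -1.83, SE 0.122, adjusted p = 3.83e-09). Bhlhe40, a basic helix-loop-helix repressor of the clock, was at 44.9 and 39.7 CPM against 107 and 110 CPM (change -2.22, SE 0.211, adjusted p = 7.67e-07). At 0 h both had been higher in Rhox10. Their order was therefore reversed at 4 h, without overlap at either time.

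Among 15 ERK feedback inhibitors 2 fell and none rose, against 0.46% and 0.203% of all genes, and the median change was -0.15. Both were DUSP phosphatases that act on MAP kinases in the nucleus. Dusp1 was at 33.3 and 34.7 CPM in Rhox10 and 78.6 and 82.3 CPM in Ctrl at 4 h, after 241 and 258 CPM against 168 and 173 CPM at 0 h (change -1.79, SE 0.171, adjusted p = 7.67e-07). Dusp2 was at 41.9 and 37.9 CPM against 109 and 117 CPM at 4 h, with a change of -1.93 (SE 0.219, adjusted p = 1.21e-05). In the fit without the Ctrl 0.5 h libraries 4 of the list fell, against 243 of all 20510 genes.

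The promoters of Dusp1 and Egr2 are shown because they hold the letters known from signal-driven immediate-early genes. Both are the 250 bases before a RefSeq start site (GRCm38.p6), 5′ to 3′ on the gene's strand. Capitals mark the CRE, TGACGTCA, bound by CREB and ATF proteins, in Dusp1 (chr17:26508473-26508722, minus strand) and a CArG box, bound by SRF, in Egr2 (chr10:67537619-67537868, plus strand).
Dusp1: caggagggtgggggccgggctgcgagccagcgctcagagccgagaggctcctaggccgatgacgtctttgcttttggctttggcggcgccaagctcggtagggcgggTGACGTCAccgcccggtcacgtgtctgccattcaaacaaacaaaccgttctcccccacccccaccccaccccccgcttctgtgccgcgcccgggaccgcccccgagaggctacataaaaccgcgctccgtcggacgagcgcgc
Egr2: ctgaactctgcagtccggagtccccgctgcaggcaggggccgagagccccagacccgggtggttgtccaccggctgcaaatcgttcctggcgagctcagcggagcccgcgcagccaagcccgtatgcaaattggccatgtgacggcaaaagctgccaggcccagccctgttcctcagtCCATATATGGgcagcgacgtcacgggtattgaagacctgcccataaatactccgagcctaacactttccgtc

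Of 12733 tested genes with a promoter, 3.27% held a CRE in at least 1 of their promoters and 1.58% a CArG box. Either strand of the 300 bases from 250 before to 50 after each start was searched. A gene with several promoters had more chances of a match. Among the 66 fallers with a promoter in the table, 7 held a CRE (10.6%) and 4 a CArG box (6.06%). The CRE genes were Btg2, Gm13584, Ccnl1, Creb5, Meg3, Rcan1 and Dusp1, and the CArG genes Fhl2, Egr2, Meg3 and Filip1l. Of the 30 risers with a promoter, 1 held a CRE and none a CArG box. These motifs were chosen with the results known, and a match is a description of the letters, not a bound site.

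Bmp2 and Inhba, ligand genes of the TGF-beta family, were among the rises, and Inhbb, another gene of that family, was among the falls. No list of the whole family's ligands was tested, but the BMP list below holds other BMP ligands, none of which rose or fell. Bmp2 (ENSMUSG00000027358, GRCm38 chr2:133552159-133562885, plus strand), a BMP ligand, was at 421 and 424 CPM in Rhox10 and at 65.8 and 72.3 CPM in Ctrl at 4 h. At 0 h it had been 167 and 174 CPM against 54.5 and 65.9 CPM. The vectors did not overlap at either time, and the ratio at 4 h was 6.12-fold. The change was 1.11 (SE 0.131, adjusted p = 1.81e-05). Bmp2 rose within Rhox10 by 1.31 on the log2 scale, while its step within Ctrl was 0.20 (adjusted p = 0.317).

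Inhba, the subunit that makes activin A, had the smallest adjusted p among the rises. It was at 1584 and 1407 CPM in Rhox10 against 353 and 332 CPM in Ctrl at 4 h, and at 138 and 148 CPM against 93.1 and 90.9 CPM at 0 h. Both vectors moved up, by 3.39 in Rhox10 and 1.90 in Ctrl, and the change of 1.49 (SE 0.131, adjusted p = 2.80e-07) is the excess in Rhox10. Inhbb, the subunit of activin B, fell (change -0.74, SE 0.165, adjusted p = 0.0319); its log2 difference was 0.83 at 0 h (adjusted p = 3.28e-05) and 0.09 at 4 h (adjusted p = 0.721). Il11, a cytokine of the IL-6 family, behaved alike in kind, at 172 and 161 CPM against 21.5 and 22.0 CPM at 4 h (change 1.25, SE 0.182, adjusted p = 0.000381). Pmepa1, a membrane protein that restrains SMAD signalling, was at 520 and 503 CPM against 240 and 254 CPM (change 0.81, adjusted p = 4.60e-06). Egfr, the receptor for EGF and related ligands, was at 114 and 108 CPM against 24.9 and 26.1 CPM (change 1.22, adjusted p = 0.000368). Chst1, a carbohydrate sulfotransferase, was at 164 and 174 CPM against 87.3 and 83.5 CPM (change 0.88, adjusted p = 0.000303).

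In the BMP pathway list, of 27 tested ligands, receptors, inhibitors and SMAD targets, Bmp2 alone rose and none fell. Of all genes 0.203% rose and 0.46% fell. The list's median change was -0.05. An unadjusted p under 0.05 was found for 10 of the 27 in edgeR and DESeq2 and for 12 in limma voom, against 1884 of the 20642 genes in edgeR. At 4 h 6 members were higher and 5 lower in Rhox10, against 6.47% and 5.74% of all genes. Id1 and Smad6 were picked from the 5 lower members after their values were seen, and do not stand for the list. The SMAD target Id1 was at 36.4 and 34.6 CPM in Rhox10 and 54.5 and 60.8 CPM in Ctrl (log2 difference -0.70, adjusted p = 0.00338), and the inhibitory Smad6 at 20.5 and 16.9 CPM against 46.3 and 40.9 CPM (difference -1.22, adjusted p = 0.00124). Neither change passed the test, at -0.56 for Id1 (adjusted p = 0.385) and -0.94 for Smad6 (adjusted p = 0.336). Without the Ctrl 0.5 h libraries 4 members of the list rose and 2 fell, against 230 and 243 of all 20510 genes.

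**Figure D2:**
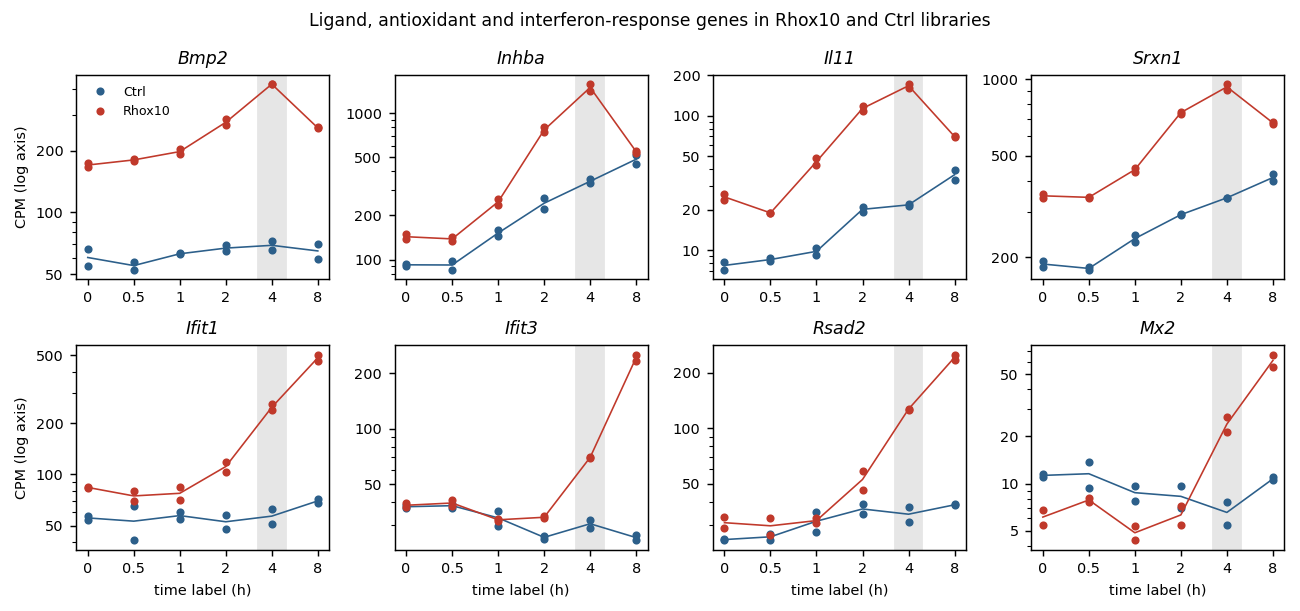
CPM (log axis) of 8 genes against the time label in h (6 evenly spaced labels, not to scale), with 1 point per library, lines through the means of the 2 libraries, Rhox10 in red, Ctrl in blue and 4 h shaded. The ligands and Srxn1 are highest at 4 h in Rhox10 among its 6 time points, while Ifit1, Ifit3, Rsad2 and Mx2 are higher still at 8 h.

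Srxn1 (ENSMUSG00000032802, GRCm38 chr2:152105516-152111376, plus strand), the sulfiredoxin that repairs over-oxidised peroxiredoxins, was at 959 and 906 CPM in Rhox10 and 343 and 341 CPM in Ctrl at 4 h. At 0 h it was at 356 and 341 CPM against 193 and 184 CPM. The change was 0.56 (SE 0.0818, adjusted p = 0.00041), with steps of 1.42 in Rhox10 and 0.86 in Ctrl. In the list of 26 NRF2 antioxidant genes Srxn1 alone rose and 2 fell, against 0.203% and 0.46% of all genes. The list's median change was -0.02. The fallers were Hmox1, haem oxygenase (change -0.74, adjusted p = 0.013), and Gclc, which makes glutathione (change -0.59, adjusted p = 0.042). Both calls were lost with a library left out: Gclc with any of the 8, and Hmox1 with 6 of them. At 4 h 12 of the 26 were higher in Rhox10 and none lower, against 6.47% and 5.74% of all genes. Nqo1, a quinone reductase, was among those with a vector difference at both times, at 63.7 and 61.9 CPM against 23.1 and 17.5 CPM at 4 h, and a change of 0.28 (adjusted p = 0.802).

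AP-1 letters, TGANTCA, are shown in the promoters of Srxn1 and Il11, the risers of the antioxidant and cytokine groups whose windows hold them. The 250 bases before the RefSeq start lie at chr2:152105274-152105523 on the plus strand for Srxn1, with 2 matches in capitals, and at chr7:4778142-4778391 on the minus strand for Il11, with 1 match.
Srxn1: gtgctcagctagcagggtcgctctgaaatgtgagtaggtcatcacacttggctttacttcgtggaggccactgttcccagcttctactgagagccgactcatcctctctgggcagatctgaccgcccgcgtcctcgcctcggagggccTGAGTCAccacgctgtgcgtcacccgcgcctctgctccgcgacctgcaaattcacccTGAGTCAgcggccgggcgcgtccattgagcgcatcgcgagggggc
Il11: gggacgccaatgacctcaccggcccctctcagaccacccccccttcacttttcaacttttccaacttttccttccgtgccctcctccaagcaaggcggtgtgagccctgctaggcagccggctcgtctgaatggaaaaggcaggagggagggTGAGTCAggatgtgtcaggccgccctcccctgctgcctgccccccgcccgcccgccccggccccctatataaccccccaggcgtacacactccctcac

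TGANTCA was present in a promoter of 9 of the 30 risers (30%) and of 10 of the 66 fallers (15.2%), against 6.9% of tested genes with a promoter. The risers were Srxn1, Tfpi2, Il11, Dhcr7, Mmp10, Gfpt2, Rsad2, Ifit3 and Ifit3b. Ifit3 and Ifit3b, counted separately here, are near-identical copies. The antioxidant response core, TGACNNNGC, whose letters can overlap the AP-1 motif, was in 6 risers' and 16 fallers' promoters against 16.5% of tested genes. The homeodomain core TAATTA was in 1 of 30 and 1 of 66, against 3.6%.

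Interferon-response genes rose without a fall among them. Of 38 tested members 8 rose, against 0.203% of all genes, with a median change of 0.43. At 4 h 18 were higher in Rhox10 and none lower, against 6.47% and 5.74% of all genes. Without the Ctrl 0.5 h libraries 14 rose, and with a single library left out 5 to 7 (5 without Ctrl 4 h replicate 2 or Rhox10 4 h replicate 2). The fit without the Ctrl 0.5 h libraries called 230 rises among all 20510 genes. Ifit1, which binds viral RNA lacking cap methylation, was at 258 and 237 CPM in Rhox10 and 51.5 and 62.6 CPM in Ctrl at 4 h, and at 84.9 and 83.1 CPM against 54.4 and 57.0 CPM at 0 h (change 1.52, SE 0.21, adjusted p = 0.000207). Its Ctrl libraries stayed near their 0 h level, with a step of 0.04 (adjusted p = 0.953).

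Rsad2, the antiviral enzyme viperin, was at 128 and 126 CPM against 31.0 and 37.4 CPM at 4 h (change 1.59, SE 0.2, adjusted p = 5.46e-05). Ifit3, a partner of Ifit1, was at 70.7 and 69.2 CPM against 29.0 and 32.1 CPM (change 1.17, adjusted p = 9.34e-05). Ifih1, the RNA sensor MDA5, was at 80.5 and 66.7 CPM against 27.7 and 20.4 CPM (change 1.501, adjusted p = 0.000303). None of these 3 genes differed past the test at 0 h, and their vectors did not overlap at 4 h. Mx2, an antiviral GTPase, had been lower in Rhox10 at 0 h, at 5.45 and 6.77 CPM against 11.1 and 11.5 CPM, and was higher at 4 h, at 21.2 and 26.8 CPM against 7.67 and 5.43 CPM (change 2.76, SE 0.333, adjusted p = 2.75e-05). The other risers were Cmpk2, Ifit3b and Oas1a. For Oas1a the change came with levels of at most 2.57 CPM and no called difference at 4 h (adjusted p = 0.4). Ifit3 and Ifit3b are near-identical copies, so how the authors' counting split their reads is uncertain.

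The windows of 3 of these genes are shown for an ISRE-like motif, GAAA and GAAA with 2 unspecified bases between, searched on either strand; capitals mark it, here as its reverse complement. They are the 250 bases before the RefSeq start, at chr19:34640639-34640888 on the plus strand for Ifit1, chr19:34583279-34583528 on the plus strand for Ifit3 and chr12:26456453-26456702 on the minus strand for Rsad2.
Ifit1: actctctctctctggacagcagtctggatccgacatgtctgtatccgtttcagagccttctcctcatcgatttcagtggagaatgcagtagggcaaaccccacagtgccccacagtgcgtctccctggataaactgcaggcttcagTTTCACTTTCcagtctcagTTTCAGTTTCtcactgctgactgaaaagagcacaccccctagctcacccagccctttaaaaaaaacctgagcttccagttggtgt
Ifit3: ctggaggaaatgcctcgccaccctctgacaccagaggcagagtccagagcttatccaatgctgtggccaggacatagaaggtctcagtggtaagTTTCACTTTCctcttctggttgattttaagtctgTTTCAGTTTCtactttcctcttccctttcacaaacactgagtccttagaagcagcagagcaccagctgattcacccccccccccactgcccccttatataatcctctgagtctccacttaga
Rsad2: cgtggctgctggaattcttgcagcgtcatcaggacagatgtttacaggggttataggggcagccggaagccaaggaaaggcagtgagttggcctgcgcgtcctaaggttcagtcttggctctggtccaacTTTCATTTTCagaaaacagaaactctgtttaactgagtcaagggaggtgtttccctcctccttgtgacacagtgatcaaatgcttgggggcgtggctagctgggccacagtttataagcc

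Ifit1 and Ifit3 each hold 2 matches and Rsad2 holds 1. The motif was in a promoter of 8 of the 30 risers (26.7%) and of 4 of the 66 fallers (6.06%), against 3.53% of tested genes with a promoter. The risers were Ifih1, Oas1a, Ddx60, Tgfbi, Rsad2, Ifit3, Ifit3b and Ifit1. All but Ddx60 and Tgfbi are risers of the interferon list, and the near-identical Ifit3 and Ifit3b are counted separately. The motif was chosen with the results known, so its share is a description and no separate support for the rise of that list.

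**Figure D3:**
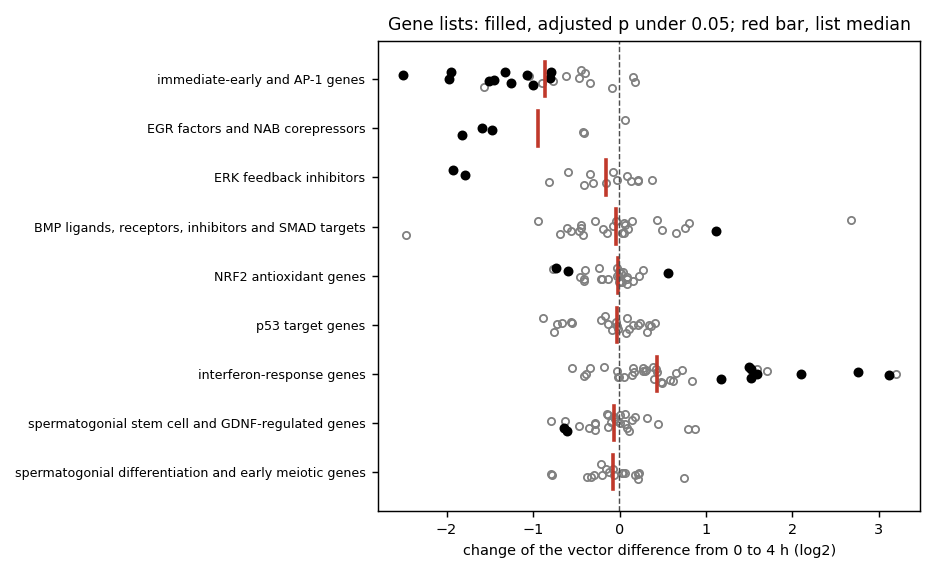
Log2 change of the vector difference from 0 h to 4 h for the tested members of 9 gene lists, 1 circle per gene, filled where the adjusted p was under 0.05, with the list median as a red bar and the median of all genes as a dashed line. The immediate-early and EGR lists lie to the left, with medians of -0.87 and -0.95, the interferon list to the right at 0.43, and the other 6 near the dashed line.

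The list of stem cell genes had a median log2 difference between the vectors of -0.27 at 0 h and -0.26 at 4 h. Of 28 tested spermatogonial stem cell and GDNF-regulated genes 2 fell and none rose, against 0.46% and 0.203% of all genes. Their median change was -0.06. At 4 h 11 were lower in Rhox10 and 1 was higher, against 5.74% and 6.47% of all genes. Bcl6b, a GDNF-induced repressor needed for stem cell upkeep, was at 180 and 181 CPM in Rhox10 and 383 and 374 CPM in Ctrl at 4 h, after 219 and 210 CPM against 294 and 281 CPM at 0 h. Lhx1, a LIM homeobox factor also under GDNF, was at 67.9 and 67.9 CPM against 173 and 176 CPM, after 86.5 and 68.7 CPM against 138 and 123 CPM. The Rhox10 libraries were the lower ones at both times for both genes. The changes were -0.65 for Bcl6b (SE 0.145, adjusted p = 0.0348) and -0.61 for Lhx1 (SE 0.143, adjusted p = 0.0462). Both calls rest on all 8 libraries: that of Bcl6b was lost without any one of them and that of Lhx1 without any of 7, and Lhx1 had an adjusted p of 0.052 with replicate number as a block.

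Gfra1 and Ret, the GDNF receptor pair, had log2 differences of -0.91 and -0.27 at 4 h (adjusted p = 4.86e-05 and 0.0251) and changes of -0.28 and -0.00 (adjusted p = 0.736 and 1). None of 19 tested differentiation and early meiotic genes rose or fell by edgeR's test, DESeq2 or limma voom, and 1 had an unadjusted p under 0.05 in edgeR. At 4 h 1 of the 19 was higher and 5 were lower, against 6.47% and 5.74% of all genes. Cyp26b1, which degrades retinoic acid, had a change of -0.78 (adjusted p = 0.242), and Stra8, induced by retinoic acid, one of -0.33 (adjusted p = 0.616).

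The p53 list had a median log2 difference of 0.39 at both 0 h and 4 h. None of its 23 tested members rose or fell by edgeR's test, DESeq2 or limma voom, and 5 had an unadjusted p under 0.05 in edgeR. At 4 h 10 were higher in Rhox10 and 2 lower, against 6.47% and 5.74% of all genes. Cdkn1a, the p53-induced inhibitor of cyclin-dependent kinases, was at 1226 and 1248 CPM against 621 and 602 CPM at 4 h and at 1088 and 1048 CPM against 557 and 563 CPM at 0 h. Its change was 0.08 (SE 0.0703, adjusted p = 0.825). Without the Ctrl 0.5 h libraries 2 members of the list fell, Plk2 among them, against 243 of all 20510 genes.

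Among genes with a mean of at least 5 CPM, the 4 h difference was largest, apart from Rhox10, for Lce1f, Ivl, Sprr1a and Il11, and the last 3 had passed the test at 0 h already. Lce1f, Ivl (involucrin) and Sprr1a encode proteins of the cornified envelope of skin. Ivl was at 93.4 and 101 CPM in Rhox10 and 12.7 and 8.98 CPM in Ctrl at 4 h, and at 22.3 and 14.2 CPM against 3.73 and 1.69 CPM at 0 h. Both vectors moved up, by 2.41 and 2.00, and the change of 0.41 did not pass (adjusted p = 0.861). Lce1f and Sprr1a had changes of 1.88 and 0.70 (adjusted p = 0.317 and 0.827). At the other end, after Cartpt at -2.13 came Egr3, Tmc3, Egr2 and Egr1. Cartpt, a neuropeptide precursor, was at 3.11 and 1.94 CPM against 14.1 and 7.89 CPM at 4 h, and its change of -2.17 missed the threshold (adjusted p = 0.061). Tmc3, a transmembrane channel-like gene, had a change of -1.52 (adjusted p = 0.124).

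**Figure D4:**
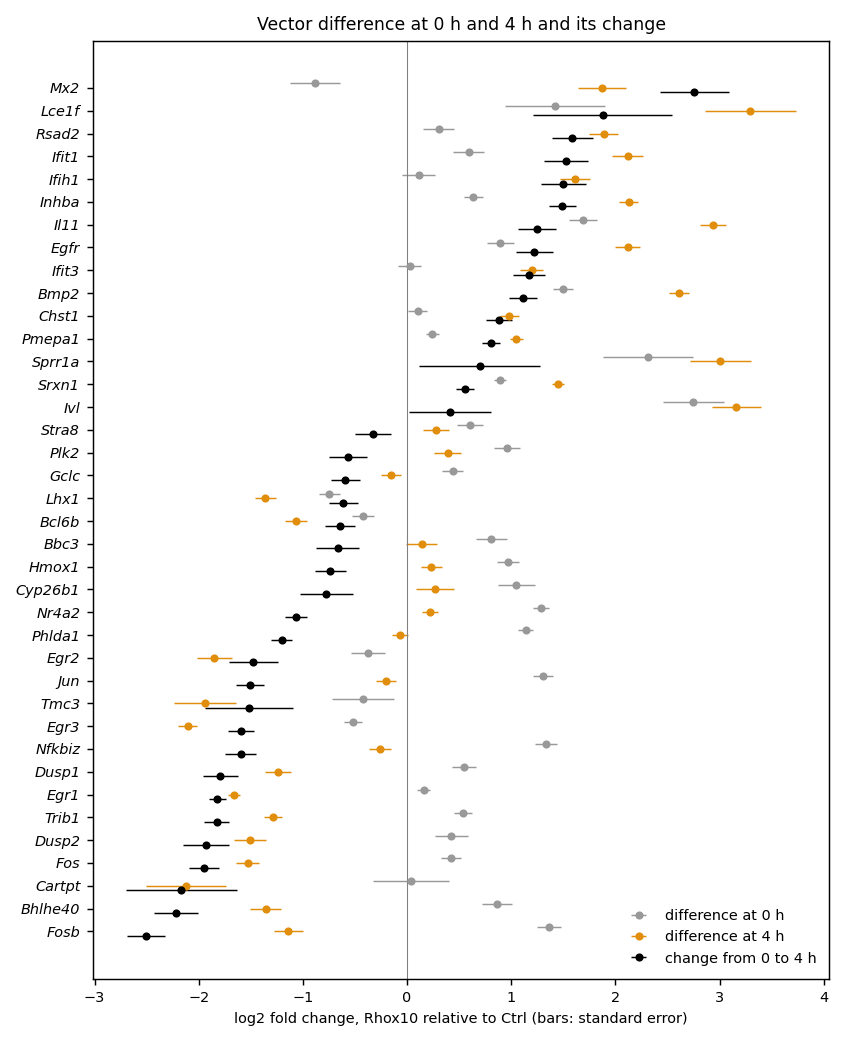
Log2 difference between Rhox10 and Ctrl at 0 h (grey) and 4 h (orange) and the change between them (black) for 38 named genes (Rhox10 itself is left out), with the standard error of the fit as bars. Genes such as Jun and Phlda1 have an orange point near 0 and a grey point above 1, Egr1 has a grey point near 0 and an orange point at -1.66, and Ivl has both points above 2.

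The labelled cell type was checked against its markers. All 10 germline markers were detected and 9 fibroblast markers too. The Sertoli gene Amh and the Leydig genes Hsd3b1, Insl3 and Lhcgr were at 0 in every library, but some other members of these lists were detected. At 4 h the Sertoli gene Sox9 was at 331 and 331 CPM in Rhox10 and 394 and 381 CPM in Ctrl. The Leydig gene Star was at 10.4 and 11.9 CPM against 10.1 and 11.6 CPM. Summed Sertoli markers were 430 and 433 CPM against 468 and 464 CPM at 4 h, and 343 and 320 CPM against 292 and 293 CPM at 0 h. At 4 h the summed germline markers were 3165 and 3117 CPM in Rhox10 and 3698 and 3656 CPM in Ctrl. At 0 h they were 2840 and 2771 CPM against 3348 and 3324 CPM. The test found 7 of the 10 lower in Rhox10 at 4 h, against 5.74% of all genes. All of the 10 but Uchl1 are also in the stem cell list above, so the counts of both lists are not separate observations. Summed fibroblast markers were 1426 and 1361 CPM against 1238 and 1223 CPM at 4 h, and 2005 and 2072 CPM against 1626 and 1499 CPM at 0 h. At 4 h 1 of the 9, Dcn, was higher in Rhox10, against 6.47% of all genes. Of 6 endothelial markers 3 were lower in Rhox10 at 4 h, against 5.74% of all genes. Of these, Cdh5 was low, at 1.15 and 0.757 CPM in Rhox10 and 2.32 and 3.55 CPM in Ctrl. The endothelial sums were 30.2 and 23.98 CPM against 50.8 and 43.3 CPM at 4 h, after 23.2 and 25.8 CPM against 33.6 and 41.8 CPM at 0 h. The order of the vectors in the germline, fibroblast and endothelial sums was thus the same at 0 h as at 4 h. In the Sertoli sum, of which Sox9 was the largest part, the order turned over. None of the 38 tested markers of 7 cell type lists rose or fell by edgeR's test, DESeq2 or limma voom, and 4 had an unadjusted p under 0.05 in edgeR. Without the Ctrl 0.5 h libraries 2 fibroblast markers and 1 Sertoli marker fell, against 243 of all 20510 genes. The part of other cell types in the vector differences was not tested.

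Set against the neighbouring times, the vector difference moved from 2 h to 4 h in 50 genes (0.242%), upward in 12 (0.0581%) and downward in 38 (0.184%). From 4 h to 8 h it moved in 206 genes (0.998%), upward in 78 (0.378%) and downward in 128 (0.62%). These comparisons share the 4 h libraries with those above. Egr3 was already lower at 2 h (log2 difference -0.60) and had reached -2.11 at 4 h and -2.08 at 8 h. For Inhba the difference was 1.66, 2.13 and 0.17 at the same 3 times, and the 8 h value did not pass (adjusted p = 0.22). For Ifit3 the values were 0.36, 1.20 and 3.25. The ligand was therefore highest in ratio at 4 h among these 3 times, whereas the interferon-response gene was highest at 8 h.

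RHOX10 peaks from CUT&Tag, an antibody-guided cutting assay run on HA-tagged Rhox10 in the same kind of cells, lay within 3 kb of the start of 20.1% of tested genes by the authors' distances. The share was 26.2% of risers (11 of 42) and 32.6% of fallers (31 of 95). Among genes with a mean of at least 20 CPM it was 33.9% of tested genes, 25.8% of risers and 34.5% of fallers, so that the fallers' share was near the background. Of the 39 named genes 9 were linked in this way: Rhox10, Srxn1, Pmepa1, Trib1, Nfkbiz, Bhlhe40, Dusp1, Nr4a2 and Bcl6b. The Srxn1 window printed above lies inside a peak at chr2:152105154-152105781 and the Dusp1 window inside one at chr17:26508320-26509001, both annotated by the authors as promoter peaks. No peak was listed within 3 kb of Egr3, Egr1, Egr2, Bmp2, Inhba or Ifit1.

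In RNA-seq of sorted OCT4-eGFP-positive cells from Rhox10-null and wild-type testes, 4 libraries each of 3 pooled animals, the same genes were looked up as a description. All 4 null libraries lay above all 4 wild-type libraries for 40 of the 79 fallers measured (50.6%) and below them for 6 (7.59%), against 15.8% and 16.4% of 13538 genes. Among genes with at least 20 CPM in iSLAM-seq the background was 13.5% above and 20.7% below. Of 21 measured risers 6 were above (28.6%) and 2 below (9.52%). Fosb was at 329, 332, 338 and 337 CPM in wild-type and at 481, 475, 472 and 469 CPM in null libraries. Inhba, a riser, was higher in the nulls too, at 28.2 to 32.2 CPM against 15.5 to 21.2 CPM. All 10 germline markers were lower in the null libraries and 5 of 8 measured fibroblast markers were higher, and their part in these counts was not tested. Rhox10 RNA did not separate the genotypes, with 4 to 11 counts in null and 3 to 10 in wild-type libraries, so these counts do not check the labels.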

How the data were processed

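The authors' deposited iSLAM-seq table holds raw counts per gene for 24 libraries made with a 3′ end kit, per the labels' protocols, with limma 3.42.2 and the mm10 build named in the submitters' processing notes. The aligner, the counter, the strand setting and whether only converted reads were counted are not given in the sources used here. Genes passing filterByExpr in edgeR 4.0.16 (R 4.3.3) were fitted with TMM factors, 12 group means and a shared dispersion, and tested by quasi-likelihood F tests with Benjamini-Hochberg adjustment over 20642 genes of 55536. The standard error is the log2 fold change over the root of F. Named genes were the markers Egr3, Srxn1, Bmp2 and Rhox10, the 10 rises and 10 falls of smallest p and the 5 largest 4 h differences each way at 5 CPM or more, and per pathway list up to 4 changed genes, or 2 where none changed. Inhbb, other list members and motif genes were named after their values were seen. The members and lists were chosen with earlier results of these data known.

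The deposited RNA-seq counts were used as TMM-scaled CPM and described only. The authors' deposited peak table gave each peak's score and distance; peak calls were not repeated. Motifs were searched in RefSeq promoters (GRCm38.p6), which 26 of 39 named genes had. Gene symbols and coordinates are from GENCODE M21. The tests were checked on simulated data with genes changed in the Rhox10 4 h libraries only. The changed genes had a mean of at least 5 CPM, and the simulated vectors did not differ at 0 h. Recovery was therefore not measured for lower genes or for genes that differed at 0 h. At absolute log2 changes of 0.5, 1 and 2, the test of the change recovered 2, 28 and 49 of 50 genes each. The test of the 4 h difference recovered 12, 42 and 50 of 50. Small changes can therefore be missed, and a gene that did not pass is not shown to be unchanged. Alternatives were DESeq2, limma voom, other scalings, filters and thresholds, fewer libraries, and each library left out.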

Additional observations from a re-analysis of the deposited data

Results flagged for a closer look

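The vector difference changed from 0 h to 4 h in 137 genes by the test of the difference between the times, and these are the genes described above.

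Between 2 h and 4 h, 17 of the 39 named genes passed the same kind of test, against 0.242% of all genes. Most named genes were chosen by their values at 4 h. The test reuses those libraries, so the choice itself favours passing. The log2 change was 2.25 for Mx2, 1.36 for Rsad2, 0.83 for Ifit3, 1.05 for Ifit1 and 0.69 for Chst1. Of the falls, the EGR and AP-1 genes gave -1.51 for Egr3, -1.10 for Egr1, -1.84 for Fosb, -0.71 for Fos and -1.20 for Egr2. The other falls were -1.39 for Trib1, -0.54 for Phlda1, -1.37 for Bhlhe40, -0.51 for Nr4a2, -1.36 for Dusp2, -0.86 for Hmox1 and -0.83 for Lhx1. Bmp2, Inhba, Il11 and Srxn1, which rose over the whole span from 0 h, are not among them.

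Between 4 h and 8 h, 12 of the named genes passed, against 0.998% of all genes. The 4 h libraries are shared here too, so the choice of genes by their 4 h values favours passing and a smaller difference afterwards. The vector difference moved down for 6 of them, with log2 changes of -0.73 for Srxn1, -0.62 for Bmp2, -1.96 for Inhba, -0.38 for Pmepa1, -1.47 for Egfr and -1.99 for Il11. It moved up by 2.05 for Ifit3, 0.76 for Egr1, 1.18 for Fos, 0.66 for Jun, 0.77 for Nfkbiz and 1.17 for Cyp26b1. For Egr1, which was lower in Rhox10 at 4 h, the upward move brought the difference to -0.90 at 8 h, and for Fos to -0.35.

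In the RNA-seq libraries 1 library lay far from the other 3 of its genotype in 4 of 50 gene and genotype groups examined, where chance gives 2.5. The gap to the nearest library, as a share of the whole range, was 0.850 for Egr3 in null libraries (5.79 CPM against 6.61 to 6.75 CPM), 0.968 for Ifih1 in null libraries (1.75 CPM against 1.31 to 1.32 CPM), 0.887 for Jun in null libraries (202 CPM against 190 to 191 CPM) and 0.871 for Stra8 in wild-type libraries (2.85 CPM against 3.91 to 4.07 CPM). These values bear on the RNA-seq description only.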

How the results depend on the processing

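Counts of changed genes moved with the libraries and the fold size asked for. The 137 changed genes became 70 at an absolute log2 change of at least 1, 395 with only the 8 libraries at 0 h and 4 h, 473 without the Ctrl 0.5 h libraries, and 69 to 94 with each of the 8 libraries left out. The 2521 differences at 4 h became 561, 3810 and 3940 under the first 3 of these, 4816 with only the 4 libraries at 4 h, and 1238 to 2385 with a library left out. The 2246 differences at 0 h became 472, 3681, 3852 and 1076 to 2006. DESeq2 called 191 changed genes, limma voom 147, and the other scalings 131 and 134. Same-numbered libraries did not deviate together (mean correlation 0.0106 over 6 pairs of groups), so the numbers do not pair them; a fit with replicate number as a block called 139, 132 of them shared, and of the named genes it ended only the change of Lhx1. In the list of NRF2 genes, 1 to 2 of the 3 calls remained in number with a library left out, and in the interferon list 5 to 7 of 8. The changes of Ivl and Sprr1a, which had not passed the test, turned negative without Ctrl 0 h replicate 1, and over the libraries left out ranged from -0.25 to 0.88 for Ivl and from -0.14 to 1.24 for Sprr1a. Counted as pairs of a named gene and an alternative setting, the change kept its side of the threshold in 655 pairs. It lost the threshold or had no adjusted p in 33, gained it in 12 and reversed its sign in 2. A lone library left in a group was assumed to vary like the other groups, and the causes were not tested. Depth limits genes such as Oas1a, at 2.57 CPM or less.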

Other observations

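The genes named here were picked from the rises and falls after their values were seen, and no list or pathway was tested for them. Hmgcs1, an early enzyme of cholesterol synthesis, was at 365 and 360 CPM in Rhox10 and 312 and 329 CPM in Ctrl at 4 h, after 200 and 198 CPM against 267 and 277 CPM at 0 h. It rose, with a change of 0.63 (adjusted p = 0.000628). Sqle, squalene epoxidase of the same synthesis, had a change of 0.68 (adjusted p = 0.0259), and Dhcr7, which makes cholesterol from its last precursor, one of 0.69 (adjusted p = 0.0337). Hmgcs1 and Sqle had been lower in Rhox10 at 0 h past the test.

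Among the falls, Cxcl1, a chemokine that attracts neutrophils, was at 42.3 and 44.1 CPM in Rhox10 and 79.6 and 85.2 CPM in Ctrl at 4 h, after 378 and 383 CPM against 220 and 203 CPM at 0 h (change -1.78, adjusted p = 0.00519). Cxcl5 had a change of -0.99 (adjusted p = 0.000381). Neat1, the scaffold of paraspeckles, had one of -1.21 (adjusted p = 2.59e-05), Meg3 one of -0.79 (adjusted p = 0.00291) and Malat1 one of -0.34 (adjusted p = 0.0226). The highest log2 change among the rises was that of Tfpi2, a serine protease inhibitor, at 18.9 and 11.02 CPM in Rhox10 against 1.11 and 0.395 CPM in Ctrl at 4 h (change 4.31, SE 0.802, adjusted p = 0.00626).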
